A study of Mus musculus with 18 samples.

Results

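Intact skin was set against the 2 layers taken from it. The arrays comprised all 18 of the series: 6 of whole skin, 6 of separated epidermis and 6 of separated dermis, each set split into 3 wild-type and 3 K14NICDER transgenic arrays. All arrays came from female mice of a C57Bl6xCBA F1 background that were 7 weeks old when 14 days of treatment with 4OHT (4-hydroxytamoxifen) began, wild-type controls included. K14NICDER joins the intracellular domain of Notch to a hormone-binding domain that 4OHT activates, and the keratin 14 promoter, active in basal keratinocytes, drives it. Skin lay in RNAlater, an RNA-stabilising solution, for 24 hours before RNA was taken, and targets were prepared with the Ovation Pico kit, which amplifies small amounts of RNA. The labels do not say whether layers and whole skin came from the same animals, nor whether animals were pooled, so p-values measure the spread between these arrays, which may be technical. A gene was described as outside the layers when its whole skin level lay above, or below, both the epidermal and the dermal level of the same genotype, and 13739 of 18193 named genes were bright enough to enter.

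Skin is built of a keratinocyte epidermis, a dermis of fibroblasts, vessels, nerves and immune cells, and, deeper, a layer of dermal fat and a thin skeletal muscle, the panniculus carnosus. Follicles and sebaceous glands cross these layers and can stay with either piece when the layers are parted. On a common scale, a mixture of the pieces alone would place each transcript of intact skin between its levels in the pieces. Tissue missing from both pieces, transcripts altered during separation and differences in the measurement cannot be told apart by this design, and in bulk samples neither can fewer cells of a type and less RNA per cell. Values are log2 MAS5 signals, the scale on which the authors deposited the data, so a difference of 1 is a doubling.

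Each layer held markers of the other. Wild-type epidermis gave 13.42, 12.61 and 13.38 for Krt10, a keratin of suprabasal cells, while dermis gave 12.47, 11.58 and 11.52 and whole skin 11.69, 11.81 and 11.83. The dermal pieces thus kept a clear keratinocyte signal. Col1a1, a chain of the main dermal collagen, read 11.04, 11.09 and 10.76 in wild-type epidermis on its brightest probe set. Dermis read 12.27, 12.09 and 11.59, so the epidermal pieces were not free of dermal transcripts either. In the transgenic arrays that probe set did not separate the layers, at 11.76, 12.08 and 11.71 in epidermis and 11.13, 12.52 and 13.14 in dermis. On another bright probe set Col1a1 means were 9.43 in wild-type epidermis and 11.80 in dermis, and 11.10 and 11.68 in transgenic skin. Array medians over a list of dermal fibroblast and matrix genes did separate the transgenic layers, at 8.17 to 9.55 in epidermis and 10.15 to 10.57 in dermis.

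The transgenic dermis array of replicate 1 correlated with the 3 transgenic whole skin arrays at Pearson's r of 0.951 to 0.961 over the tested genes, and with the other transgenic dermis arrays at 0.809 to 0.887. Its 1% brightest probe sets held 16.7% of its summed linear signal, inside the 16.4% to 19.1% of the whole skin arrays, whereas the other layer arrays held 19.2% to 33.8%. Arrays of separated layers also varied more: the median standard deviation within a group of 3 was 0.18 for whole skin against 0.411 for epidermis and 0.413 for dermis. Wild-type epidermis replicate 2 correlated with wild-type whole skin at 0.863 to 0.871, at the top of the range of 0.693 to 0.871 for wild-type epidermis. Where leaving out transgenic dermis replicate 1 moved a count by over 1.5 times, the count without it is also given.

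**Figure D1:**
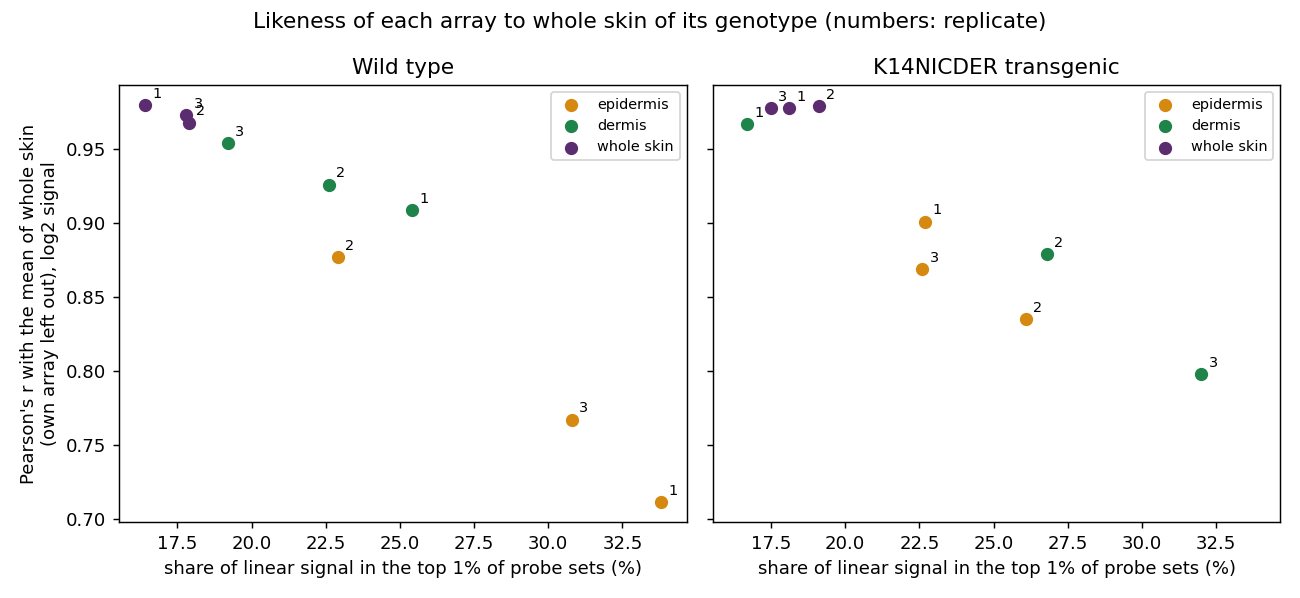
Each point is 1 array: the x axis gives how much of the array's linear signal, in percent, its brightest 1% of probe sets made up, and the y axis Pearson's r of its log2 signal with the mean of the whole skin arrays of its genotype, its own array left out. Whole skin arrays sit at the upper left with shares of 16.4% to 19.1%, and transgenic dermis replicate 1 sits among them at 16.7%.

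In wild-type skin the whole skin mean fell above, below and between the 2 layer means in similar shares, and no gene passed the joint test. Noise alone also places means outside both layers, so such shares by themselves are no finding about intact skin. The whole skin mean was above both layer means for 4239 genes (30.9%), below both for 4858 (35.4%) and between them for 4642 (33.8%). In transgenic skin 3741 genes (27.2%) were above, 4037 (29.4%) below and 5961 (43.4%) between. The joint test asks in limma that whole skin differ from epidermis and from dermis in 1 direction, taking the weaker of the 2 contrasts, with Benjamini-Hochberg adjustment over 13739 genes. It called 0 genes (0%) in each direction in each genotype. At an unadjusted p under 0.05 it held 343 genes above and 980 below in wild type, and 264 above and 457 below in transgenic skin. Its smallest adjusted p was 0.128, for Ckap4 in wild type. Without transgenic dermis replicate 1 the joint test called 19 genes above and 132 below in wild type, and 30 above and 20 below in transgenic skin.

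The 2 contrasts that the joint test combines differed widely in their counts. Wild-type whole skin differed from epidermis at 5780 genes (3083 higher, 22.4%, and 2697 lower, 19.6%), and from dermis at 57 (27 higher, 0.197%, and 30 lower, 0.218%). Transgenic whole skin differed from epidermis at 2582 genes (1702 higher, 12.4%, and 880 lower, 6.41%) and from dermis at 1255 (702 higher, 5.11%, and 553 lower, 4.03%). The counts against dermis were unstable: fitted on the 6 arrays of each pair alone they were 2088 in wild type and 1 in transgenic skin, and without transgenic dermis replicate 1 they were 949 and 4543. Leaving out any single wild-type whole skin array left 0 genes against wild-type dermis, and leaving out a wild-type dermis array left 4 to 19. That count was 331 without transgenic dermis replicate 3, 105 without wild-type epidermis replicate 1, 12 and 25 without replicate 3 of wild-type and transgenic epidermis, and 11 to 13 without a transgenic whole skin array. The transgenic count fell to between 128 and 279 without any 1 of the transgenic whole skin arrays, to 240 without dermis replicate 2 and to 151 without dermis replicate 3.

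Among the genes for which a position between the layers was taken, wild-type whole skin lay near the dermal end. These genes were fewer than the 4035 in wild type and 4393 in transgenic skin that were called different between dermis and epidermis. On a linear scale with epidermis at 0 and dermis at 1, the median position of whole skin was 0.89 over 3082 genes, with an interquartile range of 0.62 to 1.14, and 38.2% of them lay beyond the dermal mean. In transgenic skin the median position was 0.57 over 3404 genes (0.34 to 0.81), and 12.4% lay beyond the dermal mean. Leaving out transgenic dermis replicate 1 moved that median to 0.55 and the share beyond the dermal mean to 18.9%. These positions describe the arrays and were not tested.

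**Figure D2:**
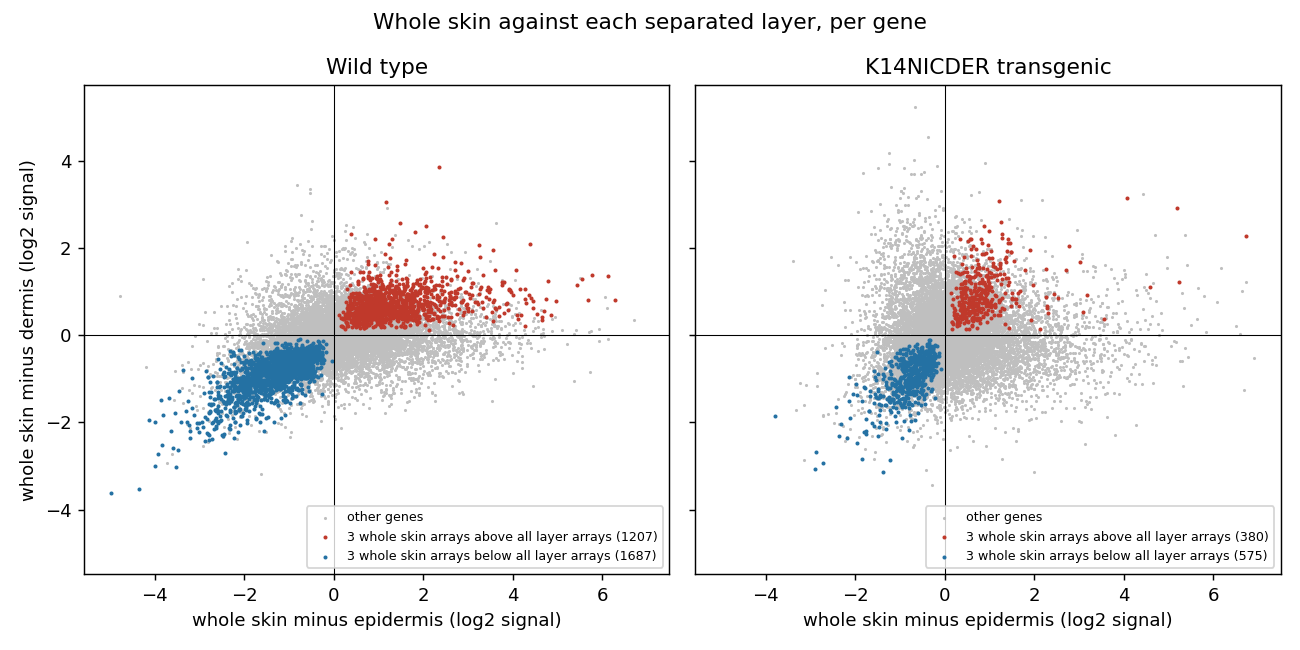
Each point is a gene, with the mean log2 signal of whole skin minus epidermis on the x axis and minus dermis on the y axis, in wild-type (left) and transgenic (right) skin. Red and blue points are genes whose 3 whole skin arrays all lie above or all lie below the 6 layer arrays, 1207 and 1687 in wild type and 380 and 575 in transgenic skin.

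A stricter description than the means asks that no array overlap. In wild type the 3 whole skin arrays all lay above the 6 layer arrays for 1207 genes (8.79%) and all below for 1687 (12.3%). For transgenic skin these counts were 380 (2.77%) and 575 (4.19%), or 1548 and 1508 without dermis replicate 1, while without whole skin replicate 1 the count above was 575. The genotypes share no array, so one can be read against the other. Of the genes, 191 (1.39% of all tested) were above in both genotypes, which is 15.8% of the wild-type list and 50.3% of the transgenic list. A further 369 (2.69%) were below in both, 21.9% of the wild-type and 64.2% of the transgenic list. No gene was above in one genotype and below in the other. Of the 1207 wild-type genes above, 1074 (89%) had a transgenic whole skin mean above both transgenic layer means and 1 had it below both. Of the 1687 below, 1484 (88%) lay on the same side in transgenic skin and 10 on the other. Without transgenic dermis replicate 1 the shared lists held 676 and 887 genes.

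The balance of the 2 directions moved with how the arrays were scaled. Of the wild-type genes without overlap, 41.7% were above as deposited, 30.1% with arrays set to a common 75th percentile and 57.1% with a common median. The corresponding transgenic shares were 39.8%, 23.7% and 11.6%. A common median raised the median wild-type difference of whole skin from epidermis over all genes from 0.02 to 0.36. When a gene's probe sets were averaged in place of using the brightest, 48.1% were above in wild type and 60% in transgenic skin, and with every probe set counted 48.2% and 54.6%. Without transgenic dermis replicate 1 the transgenic share was 50.7%. Of the genes without overlap that lay at least 1 log2 unit outside, 23.6% were above in wild type and 33.3% in transgenic skin.

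The difference between genotypes in whole skin minus the midpoint of the layers was called by limma at 0 of 13739 genes (0%), with 303 (2.21%) at an unadjusted p under 0.05. The fit with array weights per tissue called 1.

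Adipocyte genes were more often above both layers than genes at large. There were 15 tested. Whole skin lay above both layer means for 11 of them in wild type and below both for 0, against 30.9% above over all genes, and for 10 above and 1 below in transgenic skin, against 27.2%. The counts above stayed between 10 and 12 in wild type and between 9 and 11 in transgenic skin when the arrays were rescaled by quantiles, the 75th percentile or the median. The list's median difference of whole skin from epidermis was 1.75 in wild type and 1.84 in transgenic skin, and from dermis 0.40 and 0.77. Against epidermis 11 members were called higher in wild type (22.4% of all genes) and 9 in transgenic skin (12.4% of all genes), where Dgat2, a triglyceride-forming enzyme, was called lower. Against dermis none was called in wild type (0.415% of all genes were called in either direction), and Cidea and Dgat2 were called higher in transgenic skin, where 5.11% of all genes were. Adipoq and Cidea were the 2 of 15 members above all layer arrays in wild type, where 8.79% of all genes were.

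Adipoq, the adipocyte hormone adiponectin, read 9.60, 9.13 and 9.91 in wild-type whole skin, 8.12, 8.78 and 8.66 in dermis and 6.80, 5.42 and 4.64 in epidermis. All 3 wild-type whole skin arrays were above all 6 layer arrays. In transgenic skin it read 8.38, 9.04 and 9.49 in whole skin, 9.16, 7.72 and 5.41 in dermis and 2.85, 4.85 and 4.30 in epidermis, and the high dermal array, replicate 1, overlapped whole skin. Wild-type whole skin exceeded epidermis by 3.93 ± 0.72 (SE, n = 3 arrays a group, limma adjusted p = 0.00069) and dermis by 1.03 ± 0.72 (adjusted p = 0.457).

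Cidea, a lipid droplet protein of fat cells and of sebaceous glands, was outside the layers in both genotypes. Whole skin read 7.87, 8.13 and 7.91 in wild type and 7.91, 8.24 and 8.03 in transgenic mice. Dermis read 5.82, 7.15 and 7.18 in wild type and 7.41, 6.11 and 4.84 in transgenic mice, and epidermis 4.45, 6.49 and 4.33 and then 6.51, 6.86 and 6.62. No layer array reached a whole skin array of its genotype, while the joint test gave unadjusted p of 0.0401 and 0.0246 and adjusted p of 0.486 and 0.937. Aqp7, the glycerol channel of fat cells, was likewise above all layer arrays in both genotypes, at 6.71, 5.39 and 6.89 in wild-type and 5.29, 6.15 and 6.82 in transgenic whole skin against at most 5.15 in any layer array. It was read by a cross-hybridization-prone probe set, and a dim second one had wild-type means of 3.39 in whole skin, 3.32 in epidermis and 1.66 in dermis.

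Dgat1, which completes triglyceride synthesis in fat, sebaceous and other cells, was called higher in transgenic whole skin than in each layer by separate tests. Transgenic whole skin read 8.16, 8.55 and 8.31, dermis 7.96, 6.97 and 6.21 and epidermis 6.77, 7.04 and 7.37. The differences were 1.28 ± 0.35 from epidermis (adjusted p = 0.017) and 1.29 ± 0.35 from dermis (adjusted p = 0.0328). In wild type, whole skin at 8.24, 8.17 and 8.42 was above all layer arrays, the highest of which read 7.76. A second probe set of Dgat1 was not above the wild-type layers, at 5.82 in whole skin against 6.77 in epidermis and 6.04 in dermis. Fabp4, the fatty acid carrier of adipocytes, read 11.38, 11.24 and 11.71 in wild-type whole skin and 12.28, 11.92 and 11.50 in dermis on its brightest probe set. A pair of its other probe sets lay above both layer means in each genotype, in wild type at 10.98 against 10.85 in dermis and at 6.63 against 5.48. Lep, the hormone leptin, overlapped dermis in both genotypes.

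The sebaceous gland list was mixed: of 13 tested genes 6 were above and 6 below both wild-type layer means, and 7 above and 2 below in transgenic skin. Scd1, the fatty acid desaturase abundant in sebocytes, lay below every wild-type layer array, with 11.68, 11.88 and 11.90 in whole skin and at least 11.95 in the layers. Its wild-type differences were -0.39 ± 0.28 from epidermis and -0.48 ± 0.28 from dermis, and neither was called (adjusted p = 0.269 and 0.362). Its other probe set lay above both layer means in each genotype, at 11.27 in wild-type whole skin against 11.25 in dermis and 11.05 in epidermis.

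Skeletal muscle signal varied widely between arrays of the same group. Of 27 tested skeletal muscle genes 14 were above and 3 below both layer means in wild type, and 12 and 4 in transgenic skin. Of all genes 30.9% were above and 35.4% below in wild type, and 27.2% and 29.4% in transgenic skin. In the list 0 had whole skin arrays clear of the layers. Over all genes 8.79% were clear above and 12.3% clear below in wild type, and 2.77% and 4.19% in transgenic skin. Acta1, the skeletal muscle actin, read 8.68, 4.79 and 10.44 in wild-type whole skin, 10.50, 3.73 and 4.78 in dermis and 3.78, 9.25 and 7.24 in epidermis. Low and high arrays stood side by side in each of these groups. Whole skin exceeded wild-type dermis by 1.63 ± 2.13, within that spread (adjusted p = 0.712). Myh4, a myosin of fast fibres, had the same pattern, at 9.83, 5.31 and 9.92 in wild-type whole skin and 8.77, 5.27 and 4.50 in dermis.

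Endothelial genes lay far above epidermis and near dermis. Of 19 tested genes 11 were above both layer means and 0 below in each genotype, where 30.9% and 27.2% of all genes were above. Against epidermis 16 were called higher in wild type and 17 in transgenic skin, where 22.4% and 12.4% of all genes were. The list's median difference from dermis was 0.14 and 0.12, against -0.07 and -0.06 over all genes. Kdr, the main receptor for VEGF on vessels, read 6.82, 7.15 and 7.26 in wild-type whole skin, 5.41, 5.92 and 6.46 in dermis and 1.87, 0.81 and 2.26 in epidermis, with no overlap. Its wild-type excess over dermis was 1.14 ± 0.61 (adjusted p = 0.32). Transgenic dermis replicate 1, at 6.92, again lay among the transgenic whole skin arrays (6.68, 6.81 and 6.89). Pecam1, the junction protein CD31, read 6.88, 6.71 and 6.83 in wild-type whole skin and at most 6.55 in a layer array.

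Macrophage and monocyte genes were above both layers in 8 and below in 2 of 19 in wild type, and in 9 and 2 in transgenic skin. Of all genes 30.9% and 27.2% were above. Of the 19, 15 and 11 were called higher than epidermis (22.4% and 12.4% of all genes). Above all layer arrays were 2 members in wild type and 1 in transgenic skin (8.79% and 2.77% of all genes). Folr2 had means above both layers in each genotype, in wild type at 7.57 against 6.83 in dermis. Cx3cr1, a dim member, lay below both in each, in wild type at 3.62 against 4.36 in dermis and 4.47 in epidermis. Mgl2, a C-type lectin of dermal macrophages and dendritic cells, is not on this list and was named after its values were seen. It read 8.50, 8.47 and 8.54 in transgenic whole skin, 7.11, 5.81 and 3.86 in dermis and 3.33, 2.97 and 3.68 in epidermis. It was called higher than each transgenic layer, by 5.18 ± 0.70 over epidermis (adjusted p = 7e-05) and 2.92 ± 0.70 over dermis (adjusted p = 0.0208), and the joint adjusted p was 0.937, or 0.0307 without dermis replicate 1. In wild type whole skin read 9.08, 7.69 and 9.25 and dermis 7.73, 7.51 and 6.99, with overlap at 1 array. Cd209a, a lectin of the DC-SIGN family, belongs to the Langerhans and dendritic cell list. It was clear of the layers in both genotypes, at 7.86, 7.96 and 8.09 in wild-type whole skin against at most 7.72, and at 7.61, 7.49 and 7.46 in transgenic whole skin against at most 7.13.

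Mast cell genes were above both layer means in 5 and below in 1 of 8 in wild type, and in 4 and 0 in transgenic skin. Of all genes 30.9% and 27.2% were above. Mcpt4, a chymase of connective tissue mast cells, read 8.71, 8.45 and 8.37 in wild-type whole skin and 7.10, 7.98 and 7.95 in dermis. Cpa3, the mast cell carboxypeptidase, did not stand apart from dermis, at 8.32, 7.98 and 7.80 against 7.40, 8.59 and 7.93. Langerhans and dendritic cell genes had 2 above and 4 below of 11 in wild type and 5 and 0 in transgenic skin, the wild-type split turning to 6 and 0 with a common median, and T cell genes 4 and 3 of 13, then 5 and 3. Fibroblast and matrix genes had 5 above and 3 below of 25 in wild type and 4 and 5 in transgenic skin, or 8 and 4 there with quantile normalization. Smooth muscle and pericyte genes had 3 and 1 of 14, then 5 and 1. Schwann cell and nerve genes had 2 and 2 of 11 in each genotype, and melanocyte genes 3 and 1 of 9, then 1 and 1. In each genotype neutrophil genes had 1 and 0 of 4 and blood and erythroid genes 1 and 0 of 3, the last 3 and 0 in transgenic skin without dermis replicate 1.

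**Figure D3:**
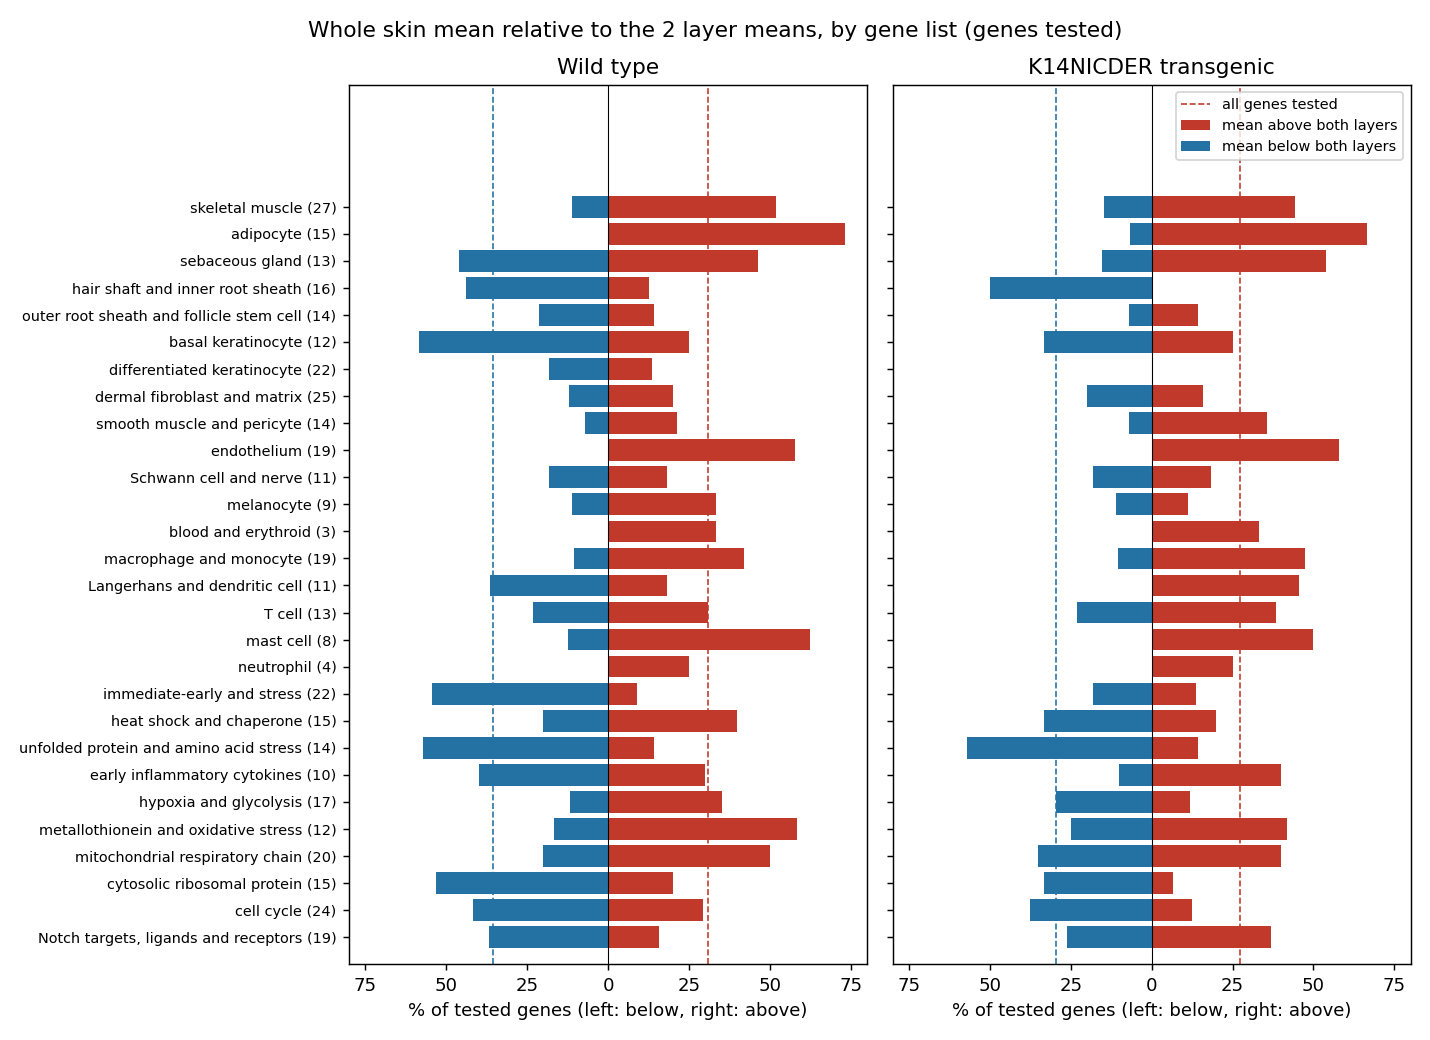
Bars give the percent of tested genes of each list whose whole skin mean lay above both layer means (red, right) or below both (blue, left), in wild-type and transgenic skin, with the number of genes tested in brackets and dashed lines for all genes tested. Adipocyte and endothelial genes extend to the right of the dashed line in both genotypes. So do the mast cell, oxidative stress, skeletal muscle, respiratory chain, sebaceous gland, macrophage and blood lists. No differentiated keratinocyte gene lies outside the layers in transgenic skin.

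The respiratory chain, which drives ATP synthesis in mitochondria, contained members on both sides. Of 20 tested genes 10 were above and 4 below both wild-type layer means, and 8 above and 7 below in transgenic skin. With quantile normalization these became 16 and 2, and 13 and 2. Atp5b, the beta subunit of ATP synthase, read 10.63, 10.83 and 10.87 in wild-type whole skin, 9.53, 9.47 and 9.99 in dermis and 6.63, 8.88 and 7.59 in epidermis. Transgenic whole skin read 10.91, 10.91 and 10.81, above dermis at 10.72, 8.37 and 7.80 and epidermis at 10.55, 8.54 and 9.11. Both genotypes were free of overlap, and the joint test gave adjusted p of 0.623 and 0.937.

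Ndufa9, a subunit of complex I, was also above all layer arrays in both genotypes, with whole skin at 9.77, 9.91 and 9.97 in wild type and 9.86, 9.86 and 9.92 in transgenic mice and the highest layer arrays at 9.09 and 9.74. The alpha subunit of ATP synthase, Atp5a1, was on the opposite side of the wild-type layers, at 11.62, 11.79 and 11.76 in whole skin and at least 11.87 in the layers. A second probe set for Atp5a1 lay above both layers, at 9.57 in wild-type whole skin against 9.40 in epidermis and 9.03 in dermis, and another lay below them, at 11.32 against 12.24 and 11.94. Subunits that work in 1 complex, and probe sets of 1 gene, were found on opposite sides.

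By 2 separate tests, each contrast adjusted on its own, whole skin was above both layers at 4 genes in wild type (0.0291%) and 16 in transgenic skin (0.116%), and below at 17 (0.124%) and 46 (0.335%). These counts moved widely: the wild-type total of 21 became 547 and the transgenic total of 62 became 900 without transgenic dermis replicate 1, while the first was 0 without any 1 of the wild-type whole skin arrays and the second was 0 without transgenic whole skin replicate 2. The 4 wild-type genes above were Blzf1, Sh3bgrl2, Kpna3 and Dusp18, chosen for naming after their values were seen, like all genes named from these tests. Blzf1, a Golgi coiled-coil protein, read 7.54, 7.83 and 7.42 in wild-type whole skin and at most 7.02 in a layer. Its transgenic whole skin arrays, at 7.57, 7.42 and 7.34, overlapped epidermis at 7.48, 7.42 and 7.18. Another probe set of Blzf1 lay below both layers in each genotype, at 5.70 in wild-type whole skin against 6.10 in dermis and 7.01 in epidermis.

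Among the 16 transgenic genes above, several were also above all wild-type layer arrays. Irf2bpl, a nuclear protein with an IRF2-binding-like domain, read 8.29, 8.39 and 8.32 in transgenic whole skin, 7.87, 7.44 and 7.09 in dermis and 6.06, 5.73 and 6.45 in epidermis. Its wild-type values were 8.87, 8.95 and 8.82 in whole skin and at most 8.05 in a layer, 2.35 ± 0.25 above epidermis (adjusted p = 7.29e-06) and 1.16 ± 0.25 above dermis (adjusted p = 0.0511). The probe set used carries the ending that marks possible cross-hybridization, and the gene's other probe sets, with wild-type whole skin at 4.20 and 3.34, lay below both wild-type layers. Inpp4a, a phosphatase that acts on phosphoinositides, read 7.39, 7.41 and 7.29 in transgenic whole skin and at most 7.03 in a layer, and 7.33, 7.74 and 7.67 in wild-type whole skin and at most 6.84 in a layer. Its second probe set was below both wild-type layers, at 4.86 against 5.05 in dermis and 5.64 in epidermis. Usp15, a deubiquitinase, read 7.44, 7.64 and 7.61 in transgenic whole skin against at most 7.09, and 7.28, 7.39 and 7.62 in wild type against at most 6.81. Other probe sets of Usp15 lay on both sides, the brightest of them below the wild-type layers at 5.25 against 7.03 in epidermis and 6.11 in dermis.

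The promoters of 4 genes that lay outside the layers in both genotypes are given to show what sequence they start from, 3 from the upper side and Cebpb, described below, from the lower. These 4 were picked after their values were seen, so the motifs they hold do not stand for the other genes. Each run is the 250 bases before a RefSeq transcription start in GRCm38.p6, 5′ to 3′ on the gene's strand. Capitals mark CCAAT and TGACGNCA found on either strand, the second being the core bound by CREB and ATF proteins. Inpp4a has 3 such promoters, of which 1 is shown. The runs lie at chr12:86884815-86885064 (minus strand), chr1:37299588-37299837 (plus), chr10:128083057-128083306 (plus) and chr2:167688665-167688914 (plus).
Irf2bpl: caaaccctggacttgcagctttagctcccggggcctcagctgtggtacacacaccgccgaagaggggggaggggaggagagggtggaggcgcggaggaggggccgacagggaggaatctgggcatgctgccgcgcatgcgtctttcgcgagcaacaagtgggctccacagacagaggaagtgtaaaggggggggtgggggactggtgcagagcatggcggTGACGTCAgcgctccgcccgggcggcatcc
Inpp4a: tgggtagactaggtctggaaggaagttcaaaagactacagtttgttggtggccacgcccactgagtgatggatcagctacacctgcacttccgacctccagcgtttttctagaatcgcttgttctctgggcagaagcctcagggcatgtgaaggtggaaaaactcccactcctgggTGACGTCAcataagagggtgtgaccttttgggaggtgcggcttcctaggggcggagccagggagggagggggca
Atp5b: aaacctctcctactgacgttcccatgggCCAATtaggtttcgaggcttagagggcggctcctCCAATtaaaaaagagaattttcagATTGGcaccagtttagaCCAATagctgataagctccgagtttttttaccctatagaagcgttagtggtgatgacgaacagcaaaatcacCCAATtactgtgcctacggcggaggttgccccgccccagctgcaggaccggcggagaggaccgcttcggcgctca
Cebpb: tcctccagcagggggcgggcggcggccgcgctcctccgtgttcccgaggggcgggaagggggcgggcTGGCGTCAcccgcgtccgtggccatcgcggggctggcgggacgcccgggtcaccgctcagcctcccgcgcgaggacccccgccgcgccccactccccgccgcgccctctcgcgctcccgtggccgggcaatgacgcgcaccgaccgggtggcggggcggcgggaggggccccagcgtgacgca
TGACGNCA begins at -30 from the start in Irf2bpl, -74 in Inpp4a and -183 in Cebpb, and Atp5b holds 5 copies of CCAAT that begin between -222 and -75. Of 32851 RefSeq promoters 2.75% hold TGACGNCA in this window and 33.8% hold CCAAT. Of the tested genes 11007 matched a promoter by symbol, and 4.49% of these held TGACGNCA. Among genes above in both genotypes 16 of 159 matched held it (10.1%), and among those below in both 14 of 302 (4.64%). CCAAT was found in 35.7% of all tested genes with a promoter, 28.9% of those above and 34.8% of those below. These shares are descriptions of letters in a window and were not tested.

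**Figure D4:**
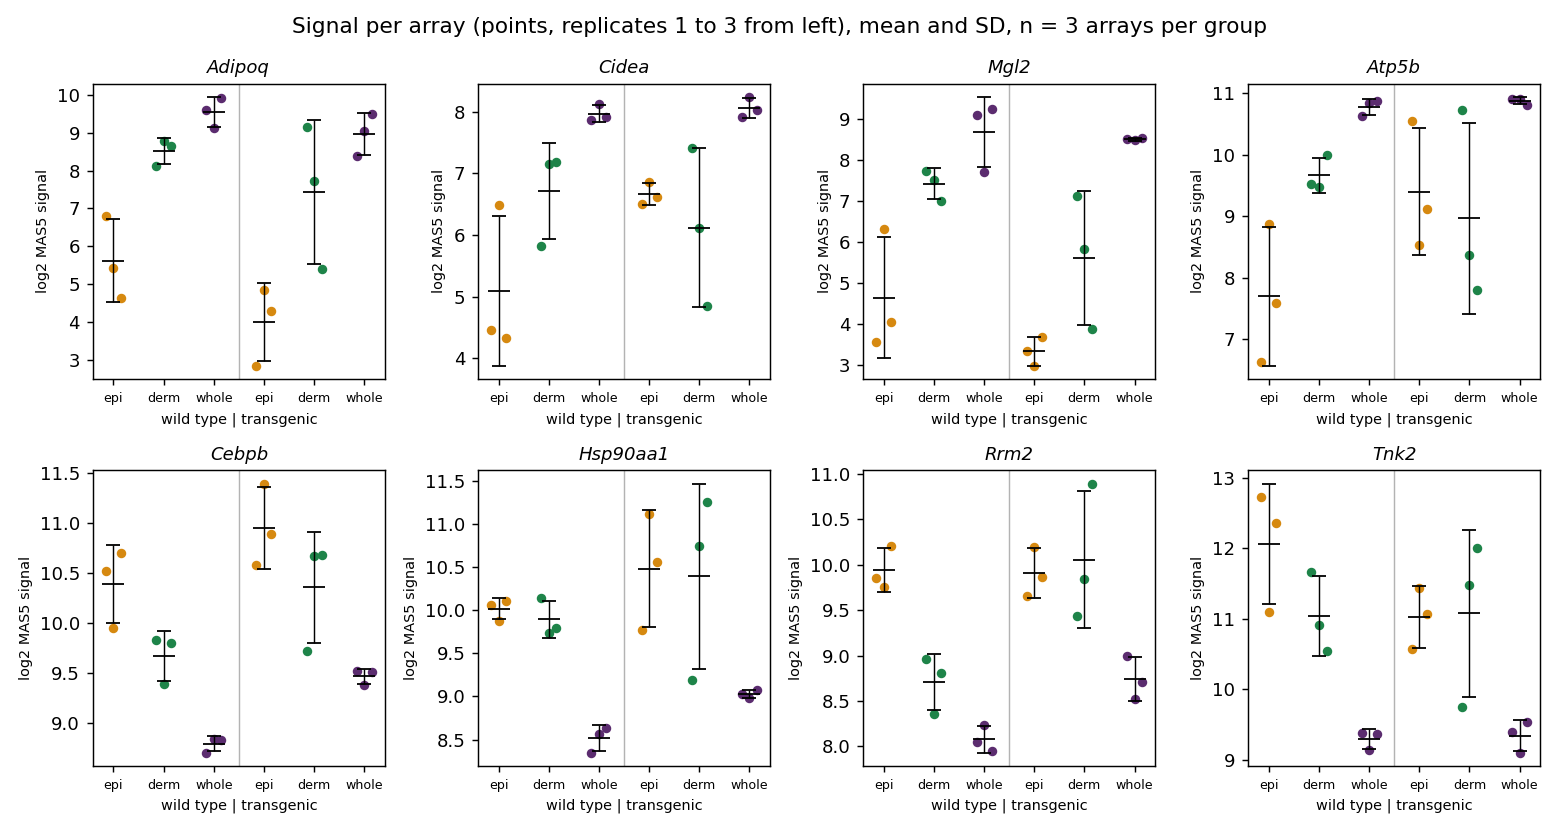
Log2 MAS5 signal of 8 genes on each array (points, replicates 1 to 3 from left to right), with mean and SD over 3 arrays, for epidermis (epi), dermis (derm) and whole skin (whole) of wild-type and transgenic mice. Whole skin is the highest group in the upper row and the lowest in the lower row, apart from transgenic Adipoq and wild-type Mgl2, where single arrays overlap a dermal array. Of the 3 transgenic dermis points the left one, replicate 1, lies nearest to the transgenic whole skin mean in all 8 panels.

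Of the genes below the layers, Ckap4 had the smallest joint p. It is a membrane protein of the endoplasmic reticulum. Its wild-type values were 9.27, 9.39 and 9.36 in whole skin, 10.76, 10.66 and 10.34 in dermis and 11.16, 10.64 and 11.03 in epidermis. Whole skin was lower than epidermis by 1.60 ± 0.20 (adjusted p = 2.98e-05) and lower than dermis by 1.25 ± 0.20 (adjusted p = 0.0166). The joint adjusted p was 0.128, and it was 0.00096 after quantile normalization, 0.0363 with array weights per tissue and 0.00974 without transgenic dermis replicate 1. That probe set also carries the cross-hybridization ending. Another probe set of Ckap4 read 7.97 in wild-type whole skin, 7.49 in epidermis and 7.57 in dermis, the opposite side, and with such probe sets left out the wild-type distance was 0.40.

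The immediate-early list, of transcription factors and others that respond within minutes to injury or stress, had 12 of 22 tested genes below and 2 above both wild-type layer means (35.4% and 30.9% over all genes), and 4 below and 3 above in transgenic skin, or 7 and 3 without transgenic dermis replicate 1. With a common median the wild-type split was 7 below and 6 above. Against wild-type epidermis 12 members were called lower and 2 higher, where 19.6% and 22.4% of all genes were, and against dermis 1 was called lower (0.218% of all genes). Fos and Atf3 did not lie outside. Fos, a subunit of AP-1, read 6.77, 6.27 and 5.68 in wild-type whole skin, between dermis at 5.39, 5.65 and 6.24 and epidermis at 7.43, 6.60 and 7.27. In transgenic skin Fos was 1.49 ± 0.32 higher in whole skin than in dermis (adjusted p = 0.0146) and 0.94 ± 0.32 lower than in epidermis (adjusted p = 0.0491). Atf3, induced by many stresses, read 5.25, 5.12 and 5.48 in wild-type whole skin and 4.09 to 6.03 in the layers.

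In wild type 3 of the 22 members, Myc, Egr1 and Jund, were below all layer arrays, where 12.3% of all genes were. Myc, a regulator of growth, read 7.58, 7.70 and 7.65 in wild-type whole skin against 8.43, 8.65 and 8.54 in dermis and 8.48, 8.56 and 8.60 in epidermis. It was called lower than each layer, by 0.91 ± 0.18 from epidermis (adjusted p = 0.00138) and 0.90 ± 0.18 from dermis (adjusted p = 0.0443). In transgenic mice Myc overlapped the layers, at 8.14, 8.19 and 8.47 in whole skin and 8.25 to 8.89 in the layers. Egr1 read 9.06, 9.04 and 8.62 in wild-type whole skin and at least 9.37 in the layers, whereas transgenic whole skin at 9.88, 9.96 and 9.83 lay within dermis at 9.60, 9.94 and 10.02. Jund, an AP-1 subunit, read 10.13, 10.36 and 10.25 in wild-type whole skin and at least 11.03 in the layers, and in transgenic skin dermis replicate 1, at 10.39, overlapped whole skin at 10.43, 10.38 and 10.40. Egr3, a relative of Egr1, was above both wild-type layers, by 1.03 over epidermis and 1.28 over dermis, while its dimmer probe set lay below them, at 2.27 against 4.88 and 4.24.

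Cebpb, a factor of keratinocyte differentiation, fat formation and inflammation, was below all layer arrays in both genotypes. Wild-type whole skin read 8.71, 8.85 and 8.84, dermis 9.83, 9.39 and 9.80 and epidermis 10.52, 9.95 and 10.70. Transgenic whole skin read 9.52, 9.38 and 9.51, dermis 9.72, 10.67 and 10.68 and epidermis 10.58, 11.39 and 10.89. By separate tests transgenic whole skin was lower than epidermis by 1.48 ± 0.27 (adjusted p = 0.00102) and lower than dermis by 0.88 ± 0.27 (adjusted p = 0.0487). A second, dim probe set of the gene had wild-type means of 2.03 in whole skin, 3.63 in dermis and 4.36 in epidermis.

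The list for stress of the endoplasmic reticulum and of amino acid supply had 8 of 14 genes below and 2 above both layer means in each genotype. Of all genes 35.4% were below and 30.9% above in wild type, and 29.4% and 27.2% in transgenic skin. The split of the list became 6 and 6 in wild type with a common median, and 5 and 1 in transgenic skin without the probe sets of doubtful specificity. The list's median difference from dermis was -0.14 in wild type and -0.15 in transgenic skin. Against dermis 1 of the 14 members was called, higher in transgenic skin, where 5.11% of all genes were. Ddit3, the factor CHOP, read 6.95, 6.48 and 6.63 in wild-type whole skin and 6.65 to 7.40 in the layers. Chac1, which degrades glutathione, read 4.44, 4.20 and 4.15 in transgenic whole skin, below all 6 layer arrays, the lowest of which was 4.52.

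Heat shock genes were spread over both sides, with 6 above and 3 below of 15 in wild type and 3 and 5 in transgenic skin. With quantile normalization these became 9 and 1, and 7 and 2. With a common median the wild-type split was 10 and 3. The inducible Hspa1b read 10.61, 10.55 and 10.70 in wild-type whole skin, 11.22, 10.51 and 10.76 in dermis and 10.43, 11.41 and 11.91 in epidermis, and Hspa1a overlapped in the same way. Hsp90aa1, the inducible HSP90 chaperone, was below all layer arrays in both genotypes on its brightest probe set, at 8.35, 8.57 and 8.64 in wild-type whole skin and at least 9.74 in the layers, and at 9.03, 8.98 and 9.08 in transgenic whole skin and at least 9.19 in the layers. Another probe set of the same gene was on the other side, with wild-type means of 9.28 in whole skin, 8.41 in epidermis and 8.21 in dermis and transgenic means of 9.46, 9.05 and 8.65. A further one read 9.43 in wild-type whole skin, between 9.30 in epidermis and 9.54 in dermis. The side on which Hsp90aa1 lies thus depended on the probe set.

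Of the other stress lists, early inflammatory cytokines had 3 above and 4 below of 10 in wild type and 4 and 1 in transgenic skin, where without dermis replicate 1 it was 4 and 2. Hypoxia and glycolysis genes had 6 above and 2 below of 17 in wild type and 2 and 5 in transgenic skin, the latter turning to 5 and 4 with quantile normalization. Il1b, an early cytokine of injured skin, read 4.77 to 5.10 in wild-type whole skin and 1.79 to 4.86 in the layers. The metallothionein and oxidative stress list had 7 above and 2 below of 12 in wild type and 5 and 3 in transgenic skin. Mt1, a zinc-binding protein induced by stress and glucocorticoids, read 7.87, 8.46 and 8.33 in wild-type whole skin, 9.54, 9.22 and 9.12 in dermis and 10.57, 9.66 and 9.97 in epidermis, with no overlap. Whole skin was lower than epidermis by 1.85 ± 0.44 (adjusted p = 0.00373), and its difference from dermis was -1.07 ± 0.44 (adjusted p = 0.206). Gclc, Gsta4, Sqstm1 and Srxn1, of the oxidative stress response, were the 4 of 12 members above all wild-type layer arrays, where 8.79% of all genes were. In transgenic skin 0 of the 12 were, where 2.77% of all genes were, and the genotype difference was called at 0 genes.

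Proliferation genes held 4 members below every layer array in both genotypes, Mki67, Rrm2, Mcm5 and Cdc20, of 24 tested, where 2.69% of all genes were. By means, 10 of the 24 were below and 7 above in wild type and 9 and 3 in transgenic skin, and with a common median the wild-type split was 7 and 10. Mki67, the antigen of cycling cells, read 9.55, 9.63 and 9.61 in wild-type whole skin, 10.44, 10.02 and 10.09 in dermis and 10.17, 10.61 and 10.42 in epidermis. It has no other named probe set. Rrm2, a subunit of ribonucleotide reductase, had a transgenic whole skin mean of 8.74 and read at least 9.44 in the layers, 1.16 ± 0.29 lower than epidermis (adjusted p = 0.0106) and 1.31 ± 0.29 lower than dermis (adjusted p = 0.0163). Its other probe sets had transgenic whole skin means of 5.75 and 7.26, the former between epidermis (6.09) and dermis (5.20) and the latter below both (7.86 and 7.34). Mcm5, of the replicative helicase, and Cdc20, an activator of the anaphase-promoting complex, were also measured on probe sets of possible cross-hybridization, and each has a second probe set that was not below the wild-type layers, at 5.12 for Mcm5 (dermis 5.12, epidermis 5.94) and 4.57 for Cdc20 (dermis 4.05, epidermis 4.95). Without x_at and s_at probe sets the cell cycle split was 7 below and 8 above in wild type and 6 and 5 in transgenic skin. Top2a, Cdk1 and Pcna were not below both layers in either genotype.

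Probe sets ending in x_at, which the array's design marks as prone to cross-hybridization, represented 5.1% of the tested genes, 14.3% of the genes below all layer arrays in wild type and 87 of the 369 below in both genotypes (23.6%). Of the 191 genes above in both they represented 5 (2.62%). The other probe sets of the same genes were used as a separate reading. Of 590 further probe sets of the genes below in both, 24.6% had whole skin means below both layers in each genotype and 20.3% had them above, against 18.1% and 24% over all genes. Of 215 further probe sets of the genes above in both, 30.2% were above and 16.7% below. What part cross-hybridization has in the genes below the layers was not tested.

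Further genes were below all layer arrays of both genotypes, and Phgdh and Dnmt1 among them were read by x_at probe sets. Tnk2, a non-receptor tyrosine kinase, read 9.38, 9.13 and 9.36 in wild-type whole skin, 11.66, 10.91 and 10.54 in dermis and 12.72, 11.10 and 12.36 in epidermis. In transgenic skin whole skin at 9.39, 9.10 and 9.53 was lower than epidermis by 1.69 ± 0.48 (adjusted p = 0.0206) and than dermis by 1.74 ± 0.48 (adjusted p = 0.0354). A second, dimmer probe set of Tnk2 had wild-type means of 5.50 in whole skin, 5.67 in dermis and 6.03 in epidermis, the same side by less. Phgdh, the entry enzyme of serine synthesis, read 8.05, 8.66 and 8.42 in wild-type whole skin and 9.79 to 12.22 in the layers, and 8.81, 7.30 and 8.48 in transgenic whole skin and 8.91 to 11.89 in the layers. Dgkz, a diacylglycerol kinase, read 8.09, 7.85 and 7.87 in wild-type whole skin and at least 9.31 in the layers, while its second probe set was above both at 5.87 against 5.58 and 5.73. Dnmt1, the maintenance DNA methyltransferase, was below both layers in each genotype on all 3 of its probe sets, with the brightest at 9.16, 9.24 and 9.25 in wild-type whole skin and at least 10.12 in the layers. For all 4 the transgenic layer array nearest to whole skin was dermis replicate 1.

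In transgenic skin all 22 differentiated keratinocyte genes tested lay between the layer means, with 14 called higher than dermis (5.11% of all genes) and 7 called lower than epidermis (6.41% of all genes). Without transgenic dermis replicate 1, 1 of the 22 lay below both layer means. In wild type 15 lay between, 3 above and 4 below. Basal keratinocyte genes had 7 below and 3 above of 12 in wild type and 4 and 3 in transgenic skin, but with quantile normalization the splits turned to 4 and 6 and to 3 and 6. Krt14, whose promoter drives the transgene, read 11.13, 11.34 and 11.35 in wild-type whole skin, 11.46, 11.51 and 11.39 in dermis and 13.03, 12.04 and 12.70 in epidermis. It was lower than epidermis by 1.32 ± 0.22 (adjusted p = 0.000322), and its difference from dermis was -0.18 ± 0.22 (adjusted p = 0.686), while another bright probe set of Krt14 lay between the layers at 10.96, with epidermis at 12.02 and dermis at 10.69. Col17a1, a collagen of hemidesmosomes, read 10.63, 10.71 and 10.62 in wild-type whole skin and 10.73 to 11.47 in the layers.

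Among 16 genes of the hair shaft and inner root sheath, 7 were below and 2 above both layer means in wild type, and 8 below and 0 above in transgenic skin. Krt27, a keratin of the inner root sheath, read 8.60, 6.59 and 2.95 in transgenic whole skin, 9.77, 9.56 and 8.19 in dermis and 5.60, 3.96 and 2.59 in epidermis. The whole skin arrays were spread over most of the range between the layers. Outer root sheath and follicle stem cell genes had 2 above and 3 below of 14 in wild type, or 5 and 0 with a common median, and 2 and 1 in transgenic skin. Cytosolic ribosomal protein genes showed how far a split can depend on scaling: 3 were above and 8 below of 15 in wild type, and 11 above and 1 below after quantile normalization, which gave the same 11 and 1 in transgenic skin in place of 1 and 5.

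Genes of the Notch pathway were 3 above and 7 below of 19 in wild type and 7 and 5 in transgenic skin, turning to 6 and 2 in wild type with a common median. Hes1, a direct Notch target, was the 1 of 19 members below all layer arrays in both genotypes, where 2.69% of all genes were. It was dim, at 3.86, 3.17 and 2.22 in wild-type whole skin, 4.75, 4.44 and 4.25 in dermis and 5.79, 5.05 and 5.47 in epidermis. Transgenic whole skin read 3.76, 4.05 and 3.85, dermis 4.08, 4.50 and 4.87 and epidermis 4.89, 5.19 and 5.20. Whole skin was lower than epidermis by 2.35 ± 0.40 in wild type (adjusted p = 0.00042) and by 1.21 ± 0.40 in transgenic skin (adjusted p = 0.045), and the differences from dermis of -1.40 ± 0.40 and -0.59 ± 0.40 were not called (adjusted p = 0.101 and 0.338). Heyl, another target, behaved differently, with transgenic whole skin at 7.82, 7.66 and 7.84 within the range of dermis at 8.27, 7.14 and 7.17. Notch1, a Notch receptor, read 8.52, 8.57 and 8.73 in transgenic whole skin and 7.49 to 8.60 in the layers. A second Notch1 probe set was not above the transgenic layers, with means of 6.35 in whole skin, 6.38 in dermis and 7.31 in epidermis.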

How the data were processed

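RNA of 18 samples was measured on Affymetrix mouse arrays, 3 per group. The submitters' processing notes name MAS5, and the authors deposited 1 table of 45037 probe sets that was taken as log2 signal from its values: on the linear scale the trimmed mean of every array lay between 98.92 and 99.52. The MAS5 settings were not stated. Values were used as deposited. Of the probe sets 34945 had 1 symbol in the platform annotation. The probe set with the highest mean stood for its gene, and genes with a mean above the 30th percentile of probe sets (log2 3.15) were kept. Group means of all 18 arrays were fitted in limma 3.58.1 (R 4.3.3) with a trended prior and 12 residual degrees of freedom. The joint p is 2 times the larger 1-sided p of the 2 contrasts, in the better direction, and was tested on simulated data. Adjusted p under 0.05 was called. Replicate numbers were not used to pair samples in the main fit, since the labels state no pairing. Yet 10 of 18 same-number pairs correlated above 0.1, so a pairing may have been ignored. For transgenic epidermis with whole skin all 3 pairs did (0.19 to 0.25), and the replicate block moved that count of calls by less than 1.5 times. The block moved the wild-type count against dermis from 57 to 149. Alternatives covered scaling, pseudocount, filter, probe set choice, fit and each array left out. The 2 separate tests, the omission of x_at and s_at probe sets and the removal of transgenic dermis replicate 1 from the described values were added after seeing the data. Members and 28 gene lists were chosen with earlier results of these data known. Genes named were, per list, up to 4 members with the smallest adjusted p in wild type and 2 in transgenic skin, a set of markers, and others chosen after their values were seen (among them Aqp7, Dgat1, Mgl2, Atp5b, Irf2bpl, Inpp4a, Usp15, Ckap4, Cebpb, Tnk2, Phgdh, Dgkz, Dnmt1, Dgat2, Gsta4, Sqstm1, Top2a, Cdk1 and Pcna). The rule for called genes gave none. Plin1, Hbb-b1 and Il6 were not tested here, and some items are not reported here. Promoters are from RefSeq. The number of arrays limits the precision.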

Additional observations from a re-analysis of the deposited data

How the results depend on the processing

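The joint test called 0 genes in every list under most settings. It called 1 wild-type gene below with quantile normalization and 1 with array weights per tissue, which also gave 1 genotype difference. Leaving out 1 array gave 0 to 19 wild-type genes above, 0 to 132 below, 0 to 30 transgenic genes above, 0 to 20 below and 0 to 1 genotype differences, the upper ends without transgenic dermis replicate 1 (for the genotype difference, without wild-type epidermis replicate 2). Wild-type whole skin against dermis counted 242 genes with quantile normalization, 14 with a common median, 93 with 16 added, 26 with the mean of probe sets, 104 with every probe set, 412 on the arrays of the genotype, 462 with weights, 2088 on the pair, 149 with the replicate block and 0 to 949 with 1 array left out. Transgenic whole skin against dermis counted 2273 with every probe set, 76 on the arrays of the genotype, 2341 with weights, 1 on the pair and 128 to 4543 with 1 array left out. Against epidermis, every probe set gave 10144 and 4186 and the pair 4445 in transgenic skin, and leaving out 1 array gave 4041 to 6510 and 1472 to 3474. Genes outside both wild-type layers by 2 separate tests counted 129 (quantile), 7 (median), 2 (mean of probe sets), 35 (every probe set), 210 (genotype), 242 (weights), 1046 (pair), 78 (replicate block), 12 (at least 1 log2 unit), 13 (no x_at or s_at) and 0 to 547 (1 array left out). The transgenic counts were 112 (75th percentile), 107 (median), 32 (mean of probe sets), 0 (genotype), 338 (weights), 0 (pair), 185 (replicate block), 39 (at least 1 log2 unit) and 0 to 900 (1 array left out). Genes clear of the layers in both genotypes counted 121 above at the 75th percentile, 68 at the median, 488 with every probe set, 21 at 1 log2 unit and 194 to 676 with 1 array left out, and below 129 with the mean of probe sets, 65 at 1 log2 unit and 374 to 887. Every probe set tests more features and fewer arrays leave fewer to overlap, and otherwise the cause was not tested. Same-number pairs correlated at -0.07 to 0.40, and 11 of 18 were best with their own number. Among these were every pair of epidermis with whole skin, and every pair of dermis with whole skin except those of replicate 3. Of the values of single named genes 13809 stayed within 1 standard error or kept their call, 366 moved further and 63 became called, most of these without transgenic dermis replicate 1.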
